A study of Mus musculus with 18 samples.

Results

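The Asb4-Peg10 cluster is an imprinted stretch of mouse chromosome 6. The 8 genes described here, Calcr, Tfpi2, Sgce, Peg10, Ppp1r9a, Pon3, Pon2 and Asb4, were taken by name out of 24062 genes counted in each sample, and the stretch was chosen by a measured value, the near loss of Asb4 counts in 1 of the 2 cell lines. RNA was sequenced from mouse NIH3T3 cells, an established embryonic fibroblast line, and from a derived line that carries mouse TRIM21, an antibody-binding ubiquitin ligase, fused to the red fluorescent protein mCherry (NIH3T3-mCherry-mTRIM21). The lines are called WT and TRIM21 below. Cells of each line were electroporated with PBS, with bovine serum albumin (BSA) or with antibody (IgG), and each of these 6 groups had 3 samples, with the numbers 10, 11 and 14 in the sample titles. All groups, the PBS controls included, received 2 pulses of 20 ms at 1400 V. The BSA and IgG groups received 7.5 µg of protein. All cells grew in medium with 10% calf serum and were lysed after 16 h. The promoter that drives the fusion and whether the derived line is a single clone are not given in the sources used here, nor is it said that samples of a group came from separate cultures, so p-values measure only the spread between these samples.

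Imprinted genes are read mainly from the copy inherited from 1 parent. In this cluster Peg10 and Sgce are the paternally expressed pair, and a methylation mark laid down in the female germline at their shared start region sets the pattern of the neighbours. Asb4, Calcr, Ppp1r9a and the paraoxonase genes are known for expression from, or biased to, the maternal copy in some tissues. Gene counts do not tell the parental copies apart, and nothing about imprinting itself was measured. In these bulk samples fewer expressing cells and less RNA per cell cannot be told apart.

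The promoter windows of Asb4, the gene on which the results turn, are shown with that of Pon2, the nearest listed gene before it, which lies on the other strand and overlapped between the lines. The windows come from RefSeq (GRCm38.p6) and run from 250 bases before to 50 bases after a start site, on the gene's own strand, 5′ to 3′. Capitals mark each CG dinucleotide, the site of DNA methylation in mammals. The first 2 are the start sites listed for Asb4, at chr6:5383136-5383435 and chr6:5390160-5390459 on the plus strand, and the last is Pon2, at chr6:5298291-5298590 on the minus strand.
Asb4, upstream start: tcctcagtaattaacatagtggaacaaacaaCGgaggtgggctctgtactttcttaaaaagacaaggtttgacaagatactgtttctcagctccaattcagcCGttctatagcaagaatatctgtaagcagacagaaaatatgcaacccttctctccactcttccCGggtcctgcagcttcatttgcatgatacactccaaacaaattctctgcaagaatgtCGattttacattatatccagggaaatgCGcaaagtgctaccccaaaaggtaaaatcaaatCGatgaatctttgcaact
Asb4, downstream start: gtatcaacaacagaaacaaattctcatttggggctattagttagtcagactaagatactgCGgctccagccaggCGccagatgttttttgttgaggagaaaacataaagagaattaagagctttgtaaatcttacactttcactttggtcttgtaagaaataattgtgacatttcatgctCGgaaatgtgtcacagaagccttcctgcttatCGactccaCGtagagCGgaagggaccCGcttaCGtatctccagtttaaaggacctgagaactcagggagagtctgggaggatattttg
Pon2: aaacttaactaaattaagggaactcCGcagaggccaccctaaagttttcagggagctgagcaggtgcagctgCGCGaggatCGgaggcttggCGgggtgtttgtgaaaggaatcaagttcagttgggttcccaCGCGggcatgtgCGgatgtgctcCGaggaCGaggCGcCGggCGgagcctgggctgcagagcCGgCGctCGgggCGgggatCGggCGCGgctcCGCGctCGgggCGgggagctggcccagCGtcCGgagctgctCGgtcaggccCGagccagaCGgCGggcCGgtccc

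The Asb4 windows held 6 and 8 CG dinucleotides, and 56.4% and 48.6% of all 32851 RefSeq windows held at least as many. The Pon2 window held 31, a number reached by 10.6% of windows. The Pon3 window held 7, and the windows of Ppp1r9a held 48 and 10. Those of Calcr held 29 and 4, and those of Tfpi2 held 2, 2 and 12. Counts were made per gene, so they do not say which Asb4 start site was used. The TATA motif TATAAA, searched on both strands, was in 0 of the 11 windows listed for 6 of the 8 genes and in 13.6% of all windows. Peg10 and Sgce are divergent genes whose annotated starts lie 99 bases apart in GENCODE (GRCm38).

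The libraries held 19509017 to 29766433 reads assigned to genes (n = 18). Trim21, which checks the line labels, had between 19900 and 32225 counts in every TRIM21 sample, while no WT sample was outside 142 to 223. Of 10 fibroblast markers, 9 (among them Vim, Col1a1 and Fn1) were above 10 CPM in all samples, and the exception was Lum, at a mean of 1.20 CPM. Their summed level was 16743 to 28282 CPM in the TRIM21 line and 24013 to 32217 CPM in the WT line, and its part in the results was not tested. CPM are counts per 1000000 reads after TMM scaling. Summed levels of 5 trophoblast markers, cells in which Peg10 is abundant, were 0.986 to 1.92 CPM and 0.890 to 1.98 CPM, with Tpbpa, Prl3d1, Gcm1 and Hand1 at 0 counts in every sample. Summed neuronal markers were 14.1 to 21.3 CPM in TRIM21 and 9.49 to 16.0 CPM in WT, mostly Tubb3, with Rbfox3 at 0. The TRIM21 PBS sample numbered 11 stood farthest from the others on the first 2 principal components.

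Asb4 encodes a protein with ankyrin repeats and a SOCS box, which acts as the substrate-binding part of a cullin ubiquitin ligase. It lies on chromosome 6 at 5383386 to 5433022 (plus strand, GRCm38, protein coding, 3932 bases of exon). The WT samples 10, 11 and 14 had 210, 231 and 286 counts after PBS. They had 228, 218 and 344 counts after BSA, and 205, 251 and 247 after IgG. In the TRIM21 line the same numbers gave 2, 1 and 9 counts after PBS. They gave 5, 9 and 6 after BSA, and 5, 6 and 9 after IgG. No TRIM21 sample came near any WT sample, although each TRIM21 sample had at least 1 read.

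Scaled for depth, Asb4 was 11.1 ± 1.77 CPM in the WT line and 0.242 ± 0.125 CPM in the TRIM21 line (SD, n = 9 each). The log2 fold change between the lines, averaged over treatments, was -5.51 (SE 0.189). This contrast chose the gene, so it is given as a description without a test. The summed counts, 52 against 2220, put the TRIM21 level at 2.21% of WT, with an exact (Clopper-Pearson) 95% interval of 1.65% to 2.91% that covers counting error only. In the TRIM21 line 3 counts, taken as the limit of detection, equal 0.0981 to 0.150 CPM, and the PBS samples 10 and 11 were below 3 counts. Asb4 ranked 8 from the bottom of 12140 tested genes by this fold change.

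The lines were apart after each treatment. The log2 fold change of Asb4 was -5.93 (SE 0.347) after PBS, -5.39 (SE 0.318) after BSA and -5.21 (SE 0.319) after IgG. Within the sample numbers it was -5.76 for 10, -5.37 for 11 and -5.42 for 14. Leaving out each of the 18 samples in turn moved it between -5.90 and -5.39.

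**Figure D1:**
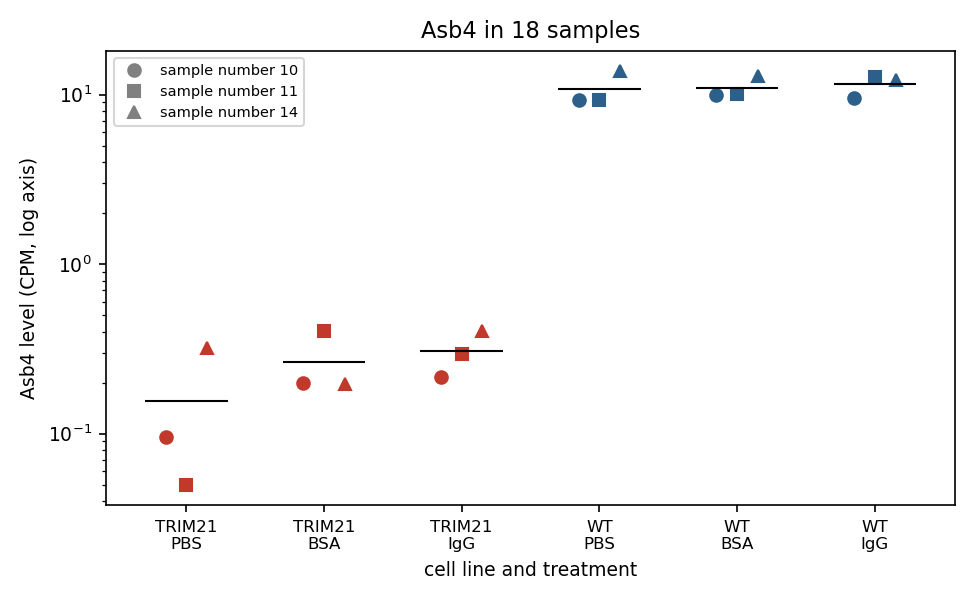
Asb4 level (CPM, log axis) in each of the 18 samples by cell line and treatment, with marker shape for the sample number and a bar for the mean of each group of 3. The WT samples (blue) lie between 9.35 and 13.7 CPM and the TRIM21 samples (red) between 0.050 and 0.404 CPM.

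Within the WT line, Asb4 levels are also given by sample number. The samples numbered 10 stood at 9.35 to 9.94 CPM and those numbered 14 at 12.2 to 13.7 CPM, without overlap. Those numbered 11 spanned 9.36 to 12.7 CPM. Among tested neighbours in WT, Pdk4 (38.3 to 47.5 against 60.9 to 74.1 CPM) and Col1a2 were likewise higher in 14 than in 10, without overlap. Gng11, Slc25a13 and Shfm1 were lower without overlap, and Bet1, Casd1 and Ccdc132 overlapped. The separation is therefore not particular to Asb4. The numbers' meaning is not given in the labels, and no test of this order was made.

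Peg10 and Sgce were all but undetected. Peg10, derived from a retrotransposon and required for placenta formation, had 1 read in the 18 libraries, in the WT PBS sample numbered 10. Sgce, which encodes epsilon-sarcoglycan, a membrane protein of the dystrophin-associated complex, had 2 reads in WT PBS sample 11 and 1 in WT PBS sample 14. All 9 TRIM21 samples had 0 reads of each, where 3 reads would have been 0.0981 to 0.150 CPM. Both genes were thus under the limit of detection in every sample, and a difference between groups below that limit could not have been seen. RNA of some partners of Sgce was detected: Sgcb stood at 49.9 ± 4.46 CPM and Dag1 (dystroglycan) at 371 ± 42.6 CPM in WT (SD, n = 9 each). Of 7 genes listed for the sarcoglycan complex, 4 were tested and 0 passed the threshold between the lines (edgeR quasi-likelihood), beside 6.18% of all genes, a share at which a list of this size tells little.

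Calcr, the calcitonin receptor, and Tfpi2, an inhibitor of serine proteases, had 0 reads in all 18 samples. Relatives of both genes were detected. Calcrl, the receptor that pairs with RAMP proteins, was 8.85 ± 1.28 CPM in WT and 8.80 ± 2.18 CPM in TRIM21, and Tfpi was 1.22 ± 0.344 and 1.30 ± 0.266 CPM (SD, n = 9 each). Of the 4 tested calcitonin-family genes, 0 passed the threshold between the lines, beside 6.18% of all genes. Ramp3, a partner of these receptors, had -0.25 (SE 0.092) and was called without TRIM21 PBS sample 14 (-0.31) or without WT PBS sample 14 (-0.31).

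Of the 8 genes, 4 had enough reads to be tested. Pon2, Pon3 and Ppp1r9a passed the filter through samples of both lines. Asb4 reached the filter's level in 9 WT samples and 0 TRIM21 samples, so its difference was in part a condition of its being tested. Between the lines 1 of the 4 tested genes, Asb4, was called (adjusted p under 0.05), beside 6.18% of all 12140 genes tested. Split by direction, 1 was called lower, beside 4.79% of all genes, and 0 were called higher, beside 1.39%. Within single treatments 1 of the 4, again Asb4, was called after PBS, BSA and IgG alike, beside 1.71%, 0.848% and 0.774% of all genes. That contrast was used to choose the cluster, and nothing is read from these counts. Pon2, Pon3 and Ppp1r9a had fold changes below 0 without passing, beside 5582 of all 12140 tested genes below 0. Pon2 and Ppp1r9a lay within 1 SE of 0.

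Pon2 and Pon3 encode paraoxonases, lactone-cleaving enzymes. Pon2 (chromosome 6, 5264147 to 5298455, minus strand) had the highest level of the 8 genes per length of exon. In the TRIM21 line the samples 10, 11 and 14 had 58.4, 51.4 and 51.2 CPM after PBS. They had 59.0, 57.7 and 44.6 CPM after BSA, and 56.0, 51.2 and 53.0 CPM after IgG. WT samples had 56.0, 57.2 and 59.6 CPM after PBS. They were 61.7, 56.8 and 49.4 CPM after BSA, and 58.3, 59.0 and 44.2 CPM after IgG. The lines overlapped throughout, at 53.6 ± 4.65 and 55.8 ± 5.51 CPM (SD, n = 9 each), and the log2 fold change was -0.058 (SE 0.071). The lowest sample of each line carried the number 14. An annotated gene, Gm44424, overlaps Pon2 exons on the opposite strand, and the strand setting of the counting is not given in the sources used here.

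Pon3 (chromosome 6, 5220852 to 5256286, minus strand) was lower in TRIM21 on average, with overlap. Its TRIM21 values for samples 10, 11 and 14 were 8.84, 5.999 and 8.40 CPM after PBS. They were 10.6, 11.04 and 8.27 CPM after BSA, and 9.04, 8.75 and 8.70 CPM after IgG. The WT values were 10.2, 9.88 and 14.5 CPM after PBS. They were 11.7, 9.44 and 9.75 CPM after BSA, and 11.7, 10.9 and 10.4 CPM after IgG. After PBS and after IgG all TRIM21 samples were below all WT samples, and after BSA the lines overlapped. With 3 samples a side, uncalled neighbours also separated, Bet1 lower after PBS (-0.23) and Casd1 higher after BSA (0.18). Nothing is read from the separation of Pon3. The log2 fold change over all treatments was -0.31 (SE 0.097), and by treatment it was -0.57 (SE 0.169) after PBS, -0.050 (SE 0.166) after BSA and -0.32 (SE 0.169) after IgG. Within the numbers 10, 11 and 14 it was -0.25, -0.23 and -0.45. It was not called, but passed in 4 of 24 fits. These were the fit with the sample numbers as a block (-0.31) and the DESeq2 Wald test (-0.31). The others were the fits without TRIM21 PBS sample 14 (-0.33) and without WT PBS sample 11 (-0.35).

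Ppp1r9a encodes neurabin, an actin-binding protein that targets protein phosphatase 1, best known from neurons. It lies at 4902917 to 5165661 (plus strand) and its counts were 7 to 17 in TRIM21 and 8 to 19 in WT. This was 0.496 ± 0.174 and 0.553 ± 0.156 CPM (SD, n = 9 each), with full overlap and a log2 fold change of -0.15 (SE 0.232). Its relative Ppp1r9b (spinophilin), was detected at 64.2 ± 7.26 CPM in WT (SD, n = 9), and 0 of 4 genes listed for protein phosphatase 1 passed the threshold between the lines (edgeR quasi-likelihood), beside 6.18% of all genes.

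**Figure D2:**
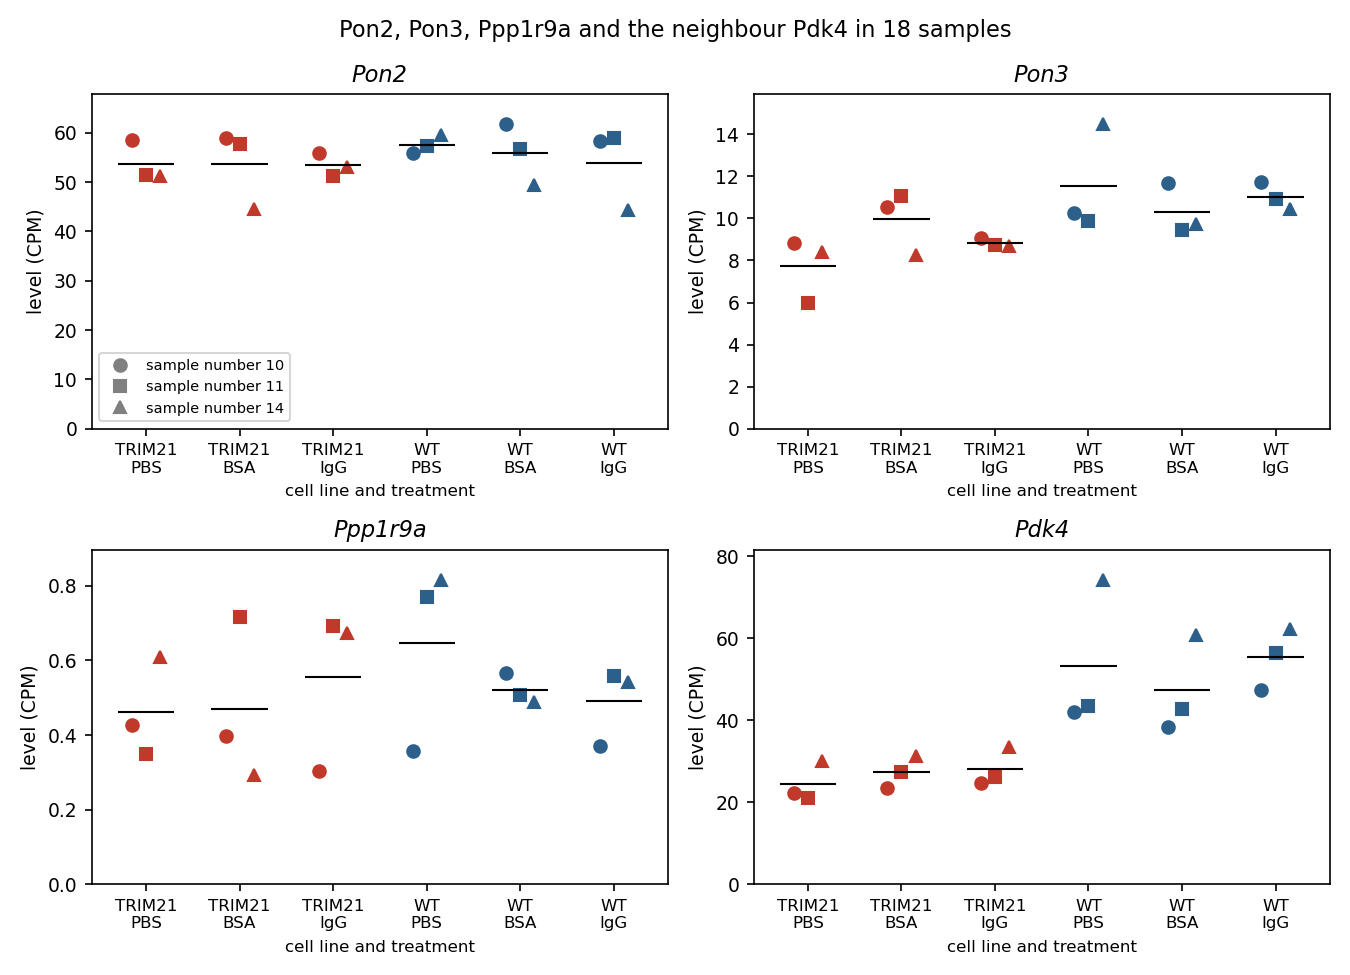
Levels (CPM, axes from 0) of Pon2, Pon3, Ppp1r9a and the neighbour Pdk4 in each sample by line and treatment, with marker shape for the sample number and a bar for each group mean. Pon2, Pon3 and Ppp1r9a overlap between the lines, while Pdk4 lies at 21.1 to 33.6 CPM in TRIM21 and 38.3 to 74.1 CPM in WT.

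Per length, the 4 tested genes had the same order in both lines, and Asb4 moved from the level of Pon3 to that of Ppp1r9a. In WT, Pon2 was at 7.61 ± 0.751 CPM per kb of exon, Pon3 at 3.23 ± 0.457, Asb4 at 2.82 ± 0.450 and Ppp1r9a at 0.0380 ± 0.0107 (SD, n = 9 each). Pon3 and Asb4 differed by less than their spread, and the other steps exceeded it. In TRIM21, Pon2 was at 7.31 ± 0.633, Pon3 at 2.61 ± 0.424, Asb4 at 0.0616 ± 0.0317 and Ppp1r9a at 0.0341 ± 0.0120. There the last 2 overlapped within their spread. Among 12057 tested genes with a known length, the WT levels lay at percentile 53.8 for Pon2, 31.7 for Pon3, 29.0 for Asb4 and 0.299 for Ppp1r9a.

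The other genes of the stretch are given for the same contrast between the lines, as a description without p-values. Of 11 neighbours listed by position, 8 were tested and 1, Pdk4, was called between the lines (lower), beside 4.79% of all tested genes called lower. Pdk4, a kinase that switches off pyruvate dehydrogenase, is the next gene after Asb4, with its start 112.9 kb away and the opposite strand (5483351 to 5496309). Its TRIM21 values were 22.2, 21.1 and 30.2 CPM after PBS for samples 10, 11 and 14. They were 23.6, 27.3 and 31.2 CPM after BSA, and 24.6, 26.1 and 33.6 CPM after IgG. The WT values were 42.1, 43.5 and 74.1 CPM after PBS. They were 38.3, 42.8 and 60.9 CPM after BSA, and 47.5, 56.5 and 62.3 CPM after IgG. The lines did not overlap, and the share of all genes without overlap was not counted. In every group the sample numbered 14 was the highest, as it was for the neighbour Col1a2.

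The log2 fold change of Pdk4 was -0.96 (SE 0.127), against -5.51 for Asb4, and within the numbers 10, 11 and 14 it was -0.87, -0.94 and -1.06. By treatment it was -1.11 (SE 0.221) after PBS, -0.79 (SE 0.219) after BSA and -0.98 (SE 0.220) after IgG. After BSA alone Pdk4 was not called. On the other side of Asb4, Pon2, whose start lies at -84.9 kb, had -0.058. Farther out, Col1a2, a collagen chain at 5493 ± 770 CPM in WT, had -0.25 (SE 0.119), Gng11 -0.32 (SE 0.133) and Bet1 -0.17 (SE 0.056), and none of the 3 was called. Casd1, the neighbour of Sgce, with its start at -782.5 kb from that of Asb4, had 0.016 (SE 0.055). Ccdc132 (Vps50), Slc25a13 and Shfm1 (Sem1) had 0.067, 0.087 and -0.019. Gngt1 had 0 reads, and Pon1 and Dync1i1 had 20 and 4 reads in the 18 samples together, too few to test.

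**Figure D3:**
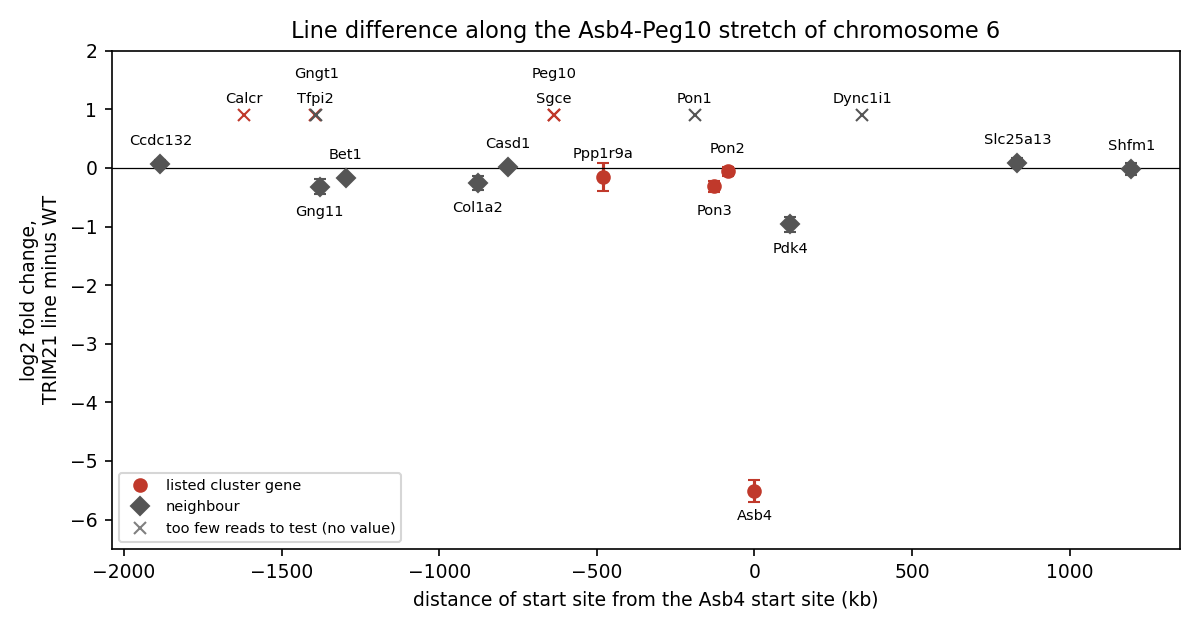
Log2 fold change of the TRIM21 line against WT (points, with bars of 1 SE) for the cluster genes (red circles) and their neighbours (grey diamonds), placed by the distance of each start site from that of Asb4 in kb. Asb4 lies at -5.51 and Pdk4 at -0.96, the other tested genes lie between -0.32 and 0.087, and crosses mark genes with too few reads to test, which have no value.

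The treatment comparisons, which had no part in choosing the cluster, asked whether delivering antibody or albumin changed these genes. In the 6 comparisons within a line, 0 of 24 tests of the 4 genes passed (edgeR quasi-likelihood with Benjamini-Hochberg adjustment over all genes), beside 0% of all genes tested. At an unadjusted p under 0.05 there was 1 of 24, and limma-voom and the DESeq2 Wald test also gave 0 calls. In the 3 comparisons of a treatment difference between the lines, 0 of 12 tests passed, beside 0% of all genes, with 1 at an unadjusted p under 0.05.

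For Asb4, IgG against PBS gave a log2 fold change of 0.089 (SE 0.212, edgeR adjusted p = 1) in WT, and IgG against BSA gave 0.062 (SE 0.211, adjusted p = 0.956). In WT the group means of PBS, BSA and IgG samples were 10.8 ± 2.51, 10.97 ± 1.71 and 11.5 ± 1.72 CPM (n = 3 each, SD), all within 1 SD of each other. In the TRIM21 line the means were 0.156 ± 0.146, 0.266 ± 0.118 and 0.306 ± 0.0934 CPM. IgG against PBS there was 0.81 (SE 0.567, edgeR adjusted p = 0.728), from 20 and 12 summed counts, and its difference from the WT line was 0.72 (SE 0.603, adjusted p = 0.972). A change of that size was not detectable at these counts.

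Pon2 was the steadiest. Its 6 treatment differences lay between -0.097 and 0.0019 on the log2 scale, with SEs of 0.12. Pon3 gave the smallest p of each family. BSA against PBS in TRIM21 was 0.36 (SE 0.169, edgeR unadjusted p = 0.0498, adjusted p = 0.841). In WT the same difference was -0.16 (SE 0.166, edgeR adjusted p = 0.982). The difference between the lines was 0.52 (SE 0.237, unadjusted p = 0.0426, adjusted p = 0.651). Without the TRIM21 PBS sample numbered 11, the library that stood apart and had the lowest Pon3 level, these became 0.21 (edgeR unadjusted p = 0.237) and 0.37 (unadjusted p = 0.118). Without WT PBS sample 14, which had the highest Pon3 level, the difference between the lines became 0.32 (edgeR unadjusted p = 0.160). Ppp1r9a moved by -0.40 to 0.28 with SEs near 0.4, and no change of that size could be resolved from its counts.

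**Figure D4:**
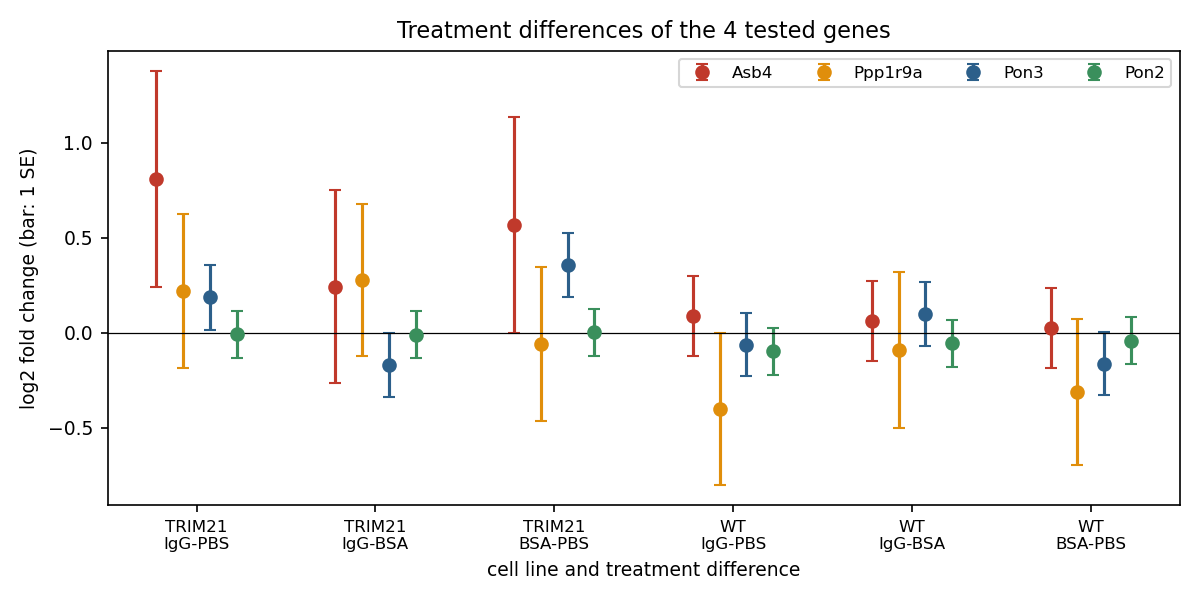
Log2 fold changes with bars of 1 SE for Asb4, Ppp1r9a, Pon3 and Pon2 in the 6 treatment comparisons (IgG or BSA against PBS, and IgG against BSA, in each line). Asb4 in the TRIM21 line and Ppp1r9a have the widest bars, and no value passed the threshold.

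The genes whose profiles were nearest to Asb4 over the 18 samples were found by the root mean square difference of log2 CPM, each gene centred on its own mean (0.5 counts added before the log). Lama2, a laminin chain of basement membranes (chromosome 10), was nearest at 0.611 log2 units. Papss2, which makes the sulfate donor PAPS (chromosome 19), followed at 0.896 and Uty, a Y-linked gene, at 0.905. Meg3 and Rian, noncoding RNAs of the imprinted Dlk1-Dio3 locus on chromosome 12, were at 0.925 and 0.933. The median over all tested genes was 2.86. The Asb4 profile is mostly the step between the lines, which chose the gene. Nearness by this measure therefore selects genes with a like step, and nothing is read from all 5 having it. Lama2 had 163 to 255 counts in WT and 2 to 14 in TRIM21, Papss2 106 to 172 and 3 to 12, and Meg3 2842 to 5474 and 117 to 423. Uty had 49 to 81 and 0 to 2, so its TRIM21 values were under the limit of detection. None of the 5 lies on chromosome 6, and Pdk4, at 2.36, ranked 143 in this order.

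**Figure D5:**
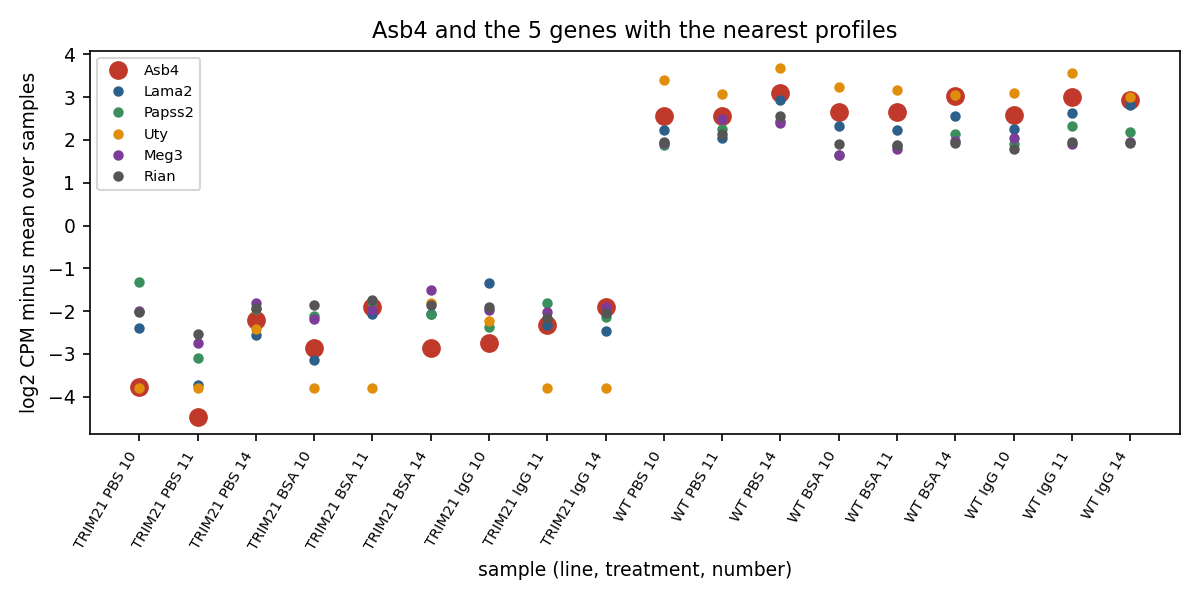
Log2 CPM minus each gene's mean over the 18 samples for Asb4 (large red points) and the 5 genes with the nearest profiles, by sample. All 6 genes are below 0 in the 9 TRIM21 samples and above 0 in the 9 WT samples, and Asb4 is lowest in the TRIM21 PBS sample numbered 11, with 1 count.

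RNA for the core of the ubiquitin ligase in which Asb4 acts was detected in both lines, and protein was not measured. Of 21 genes listed (the other ASB proteins and the ligase core), 10 were tested and 1, Asb1, was called between the lines, beside 4.79% of all genes called lower. Asb1 was 20.7 ± 1.28 CPM in TRIM21 and 23.6 ± 1.48 CPM in WT (SD, n = 9 each), with a log2 fold change of -0.19 (SE 0.054), and it was called in 7 of 24 fits, the one reported here included. The scaffold Cul5 had 100.2 ± 8.67 and 100.7 ± 7.60 CPM, its RING partner Rnf7 82.8 ± 9.49 and 82.8 ± 8.68 CPM. The adaptors Tceb1 and Tceb2 (elongins C and B) had log2 fold changes of -0.031 (SE 0.068) and 0.076 (SE 0.122).

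Relatives of Peg10 were detected. Among 9 genes listed as retrotransposon-derived relatives, 5 were tested, 3 were called between the lines and all 3 were lower in TRIM21, beside 4.79% of all genes called lower. The list was chosen with earlier results of these data known, and nothing is read from this count. Rgag4 (Rtl5) stood at 9.60 ± 0.866 CPM in WT and 3.60 ± 0.452 CPM in TRIM21 (SD, n = 9 each). Its log2 fold change was -1.41 (SE 0.086), without overlap. Rtl1, of the Dlk1-Dio3 locus, stood at 8.22 ± 1.49 and 4.87 ± 1.02 CPM, a change of -0.75 (SE 0.136), with overlap. Cxx1c (Rtl8c) had 7 to 25 counts in WT and 0 to 2 in TRIM21, below the limit of detection there. No TRIM21 sample reached the filter's level for Cxx1c, so, as for Asb4, its difference was in part a condition of its being tested. Its copies Cxx1a and Cxx1b had -0.021 (SE 0.120) and -0.13 (SE 0.077) and were not called. The 3 Cxx1 genes are near-identical copies, so the split of reads among them is uncertain.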

How the data were processed

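The files hold raw counts of reads per gene symbol, 1 file per sample, deposited by the authors without normalization. Per the labels' protocols, libraries were strand-specific and polyA-enriched. The submitters' processing notes name STAR 2.5.1b, HTSeq 0.6.0, DESeq2 1.6.3 and the build mm10, without roles or settings. Closing lines for reads given to no gene were left out: reads outside genes were 13.1% to 18.8% and ambiguous reads 0.473% to 0.630% of those counted. The line for alignments that were not unique held 14199493 to 22123689 per sample and is outside these shares.

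Counts of all 18 samples were fitted in edgeR 4.0.16 (R 4.3.3) with TMM scaling and 1 mean per group. filterByExpr (minimum count 10, minimum total 15) kept 12140 of 24062 genes. Tests were quasi-likelihood tests with Benjamini-Hochberg adjustment over all tested genes in each comparison, with a threshold of 0.05. SEs were derived from the F statistic. Pairs of libraries within a group differed by more than counting noise (chi-square divided by its degrees of freedom, 10.6 to 82.0). Positions and exon lengths are from GENCODE M21 (GRCm38) by symbol (22758 matched directly, 933 by an older symbol, 371 not). The fit was tested on simulated counts. Intervals and detection limits cover counting error only. Alternatives were DESeq2 size factors, no filter, a replicate block, the DESeq2 1.42.0 Wald test, limma 3.58.1 with voom weights, fits of the compared groups alone (treatment comparisons), and omission of each sample.

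Genes named are the 8 members, Trim21, the 11 neighbours, the 5 nearest profiles and up to 3 called genes of each partner list; other partner genes are given for their levels and were chosen after their values were seen. The members and lists were chosen with earlier results of these data known.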

Additional observations from a re-analysis of the deposited data

How the results depend on the processing

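The log2 fold changes of Asb4, Pon2, Pon3 and Ppp1r9a between the lines moved by less than the replicate SD in all 23 alternatives, and Asb4 and Pdk4 were called in each. Asb4 was chosen by this contrast and the alternatives reuse the same samples, so nothing is read from its calls. Member calls between the lines went from 1 to 2 (Pon3 added) with the replicate block and with the DESeq2 Wald test, and were 1 to 2 when single samples were left out. Neighbour calls were 1 to 2 on leaving out samples; Bet1 was added without TRIM21 IgG sample 14. Partner calls were 4, and 3 to 5 over all alternatives (Asb1 was called in 7 of 24 fits, and Adm, at -0.44, only with the replicate block). Genes called between the lines were 750, with the replicate block 1461, and on leaving out samples 500 to 1244, the highest without TRIM21 PBS sample 14. Treatment and interaction calls stayed at 0 for the members and for all genes in all 24 alternatives. The numbers were not taken to pair the samples: same-number deviations correlated at a mean of 0.203 with 31 of 45 pairs over 0.1, against a mean of -0.101 and 10 of 90 pairs for different numbers, and 17 of 18 samples correlated best with their own number, a hint from the data and not the design. Depth limits Peg10, Sgce, Calcr and Tfpi2, which were under 3 counts in every sample, and the treatment changes of Asb4 in TRIM21 and of Ppp1r9a.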
